A study of Mus musculus with 22 samples.

Results

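The regions described here carried a called peak of acetylated or crotonylated lysine 9 of histone H3 (H3K9ac or H3K9cr) in the telencephalon of embryonic day 13.5 (E13.5) mice and none at E16.5. They were chosen by called peaks alone: all peaks of 12 histone lists on chromosomes 1 to 19 and X were joined wherever 1 bp or more was shared, and a joined region was selected when both E13.5 H3K9ac lists or both E13.5 H3K9cr lists held a peak in it and none of the 4 E16.5 lists of these marks did. This left 463 of 112550 merged regions, called lost regions below. Another 27871 regions had one of the marks in both libraries at E16.5 and one of them in both libraries at E13.5, and these kept regions serve as the comparison.

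The study profiled the telencephalon, the embryonic forerunner of the cerebral cortex and basal ganglia, of ICR mice at E16.5 and at E13.5. Native ChIP-seq, which precipitates chromatin that was never crosslinked, covered H3K9ac, H3K9cr and lactylated lysine 18 (H3K18la) at E16.5 and at E13.5, and ATAC-seq, which maps open chromatin, covered E13.5. RNA-seq of polyadenylated RNA covered both stages. All groups were of one strain with no mutation or treatment named in the labels, each with 2 libraries stated to be biological replicates. The number of embryos per library is not stated in the labels. The input libraries were not analysed here. The tissue was a mixture of progenitors, neurons, vessels and blood, so that fewer cells of a type and less mark or RNA per cell cannot be told apart. RNA libraries held 17533164 and 18024657 counts at E16.5, against 17059544 and 18485855 at E13.5. Emx1, a transcription factor of the dorsal telencephalon, had 34.4 and 29.6 CPM (counts scaled to library size) at E16.5, against 96.0 and 73.8 CPM at E13.5. Hoxa2 and Hoxb4, genes of the hindbrain and spinal cord, had 0 counts in all libraries.

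Acetyl and crotonyl groups on lysine 9 remove its positive charge and are recognised by reader proteins, and both marks are found at promoters and enhancers that are in use. Lactylation of lysine 18 is a related acyl mark whose donor derives from lactate. Between the stages compared, the dorsal telencephalon passes from making mainly progenitors and deep-layer neurons to making upper-layer neurons, and transcription factors of patterning and of early-born cells are among the genes that change their use in this window.

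Where a lost region lay on an annotated start, the promoter window can be shown. The windows below come from RefSeq on GRCm38.p6 and run from 250 bases before to 50 after the start, 5′ to 3′ on the gene's strand, with CpG dinucleotides in capitals. They belong to 3 genes whose RNA fell and 1 whose RNA rose and were chosen with the RNA values known, as examples of start sequence under lost regions. The coordinates are chr2:31639787-31640086 (plus strand) for Prdm12, chrX:106485180-106485479 (minus strand) for Fndc3c1, chr6:23248215-23248514 (minus strand) for Fezf1 and chr11:69549059-69549358 (minus strand) for Dnah2. The first, second and last of these windows lay wholly inside a lost region, and of the Fezf1 window 161 bases did.
Prdm12: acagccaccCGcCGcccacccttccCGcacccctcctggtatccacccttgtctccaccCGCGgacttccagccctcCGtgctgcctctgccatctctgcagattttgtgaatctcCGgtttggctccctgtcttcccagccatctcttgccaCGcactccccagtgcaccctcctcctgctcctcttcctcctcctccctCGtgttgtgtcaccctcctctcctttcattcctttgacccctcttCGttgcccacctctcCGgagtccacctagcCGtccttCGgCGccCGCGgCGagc
Fndc3c1: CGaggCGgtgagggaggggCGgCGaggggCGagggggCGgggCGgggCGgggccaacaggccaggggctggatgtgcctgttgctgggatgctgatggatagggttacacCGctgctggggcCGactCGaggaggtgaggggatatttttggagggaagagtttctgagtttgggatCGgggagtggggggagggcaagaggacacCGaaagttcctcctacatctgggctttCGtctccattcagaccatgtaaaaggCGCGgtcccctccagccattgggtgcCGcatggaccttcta
Fezf1: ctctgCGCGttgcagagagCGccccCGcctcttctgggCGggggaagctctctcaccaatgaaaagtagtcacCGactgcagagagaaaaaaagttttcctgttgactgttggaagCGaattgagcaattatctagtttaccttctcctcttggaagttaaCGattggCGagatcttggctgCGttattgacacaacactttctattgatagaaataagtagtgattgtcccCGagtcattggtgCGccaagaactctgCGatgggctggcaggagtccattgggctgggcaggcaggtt
Dnah2: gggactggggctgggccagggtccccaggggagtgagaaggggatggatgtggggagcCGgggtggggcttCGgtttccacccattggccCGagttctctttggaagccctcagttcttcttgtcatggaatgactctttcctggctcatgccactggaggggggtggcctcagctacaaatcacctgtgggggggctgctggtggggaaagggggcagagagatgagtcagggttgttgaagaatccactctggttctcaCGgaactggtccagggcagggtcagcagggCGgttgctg

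The printed windows held 17 CpG for Prdm12, 17 for Fndc3c1, 13 for Fezf1 and 5 for Dnah2. In all, 22 promoter windows from 19 genes overlapped a lost region, with a median of 8.5 CpG and 56.3% G and C. Nearly the same window was counted for Gm35082 at starts 100674757, 100674758 and 100674771, and the windows of Stra6 overlapped. The same bases can thus count more than once in these medians and in the motif shares. Windows that overlapped kept regions had a median of 21 CpG and 61.3% G and C, and all windows of the table had 7 CpG and 53.0%. The lost windows thus sat nearer to the average promoter than to the CpG-rich promoters under kept regions, and ranged from 1 CpG at Gm14275 to 27 CpG at Gbx2 and at Lgi2. The homeodomain core TAATTA, which reads the same on both strands, was in 13.6% of the lost windows, 2.71% of the kept windows and 5.25% of all windows. The AP-1 motif TGACTCA, searched on both strands, was in 18.2%, 3% and 5.22%. The Sp1 box GGGCGG was in 59.1%, 63.7% and 35.9%, and the E-box CAGCTG in 22.7%, 15.3% and 16.4%. With so few lost windows these shares are descriptions and not sites.

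Most lost regions were acetylated. Through the E13.5 lists of H3K9ac 391 of the 463 qualified (84.4%), through both marks 47 (10.2%) and through H3K9cr 25 (5.4%). Of the 391, 94 also had H3K9cr in 1 of the 2 E13.5 lists and 297 had it in none, so the label of H3K9 acylation rests mainly on H3K9ac. The rule used these peaks, so their strength is given only as a description. The fold enrichment of a peak, taken over the caller's local background, is the authors' own value. In the lost regions its median was 4.36 and 4.17 in the E13.5 H3K9ac libraries and 4.92 and 4.90 in those of H3K9cr, against 13.6, 12.5, 18.9 and 18.9 in kept regions in the same order. Lost regions were therefore weakly marked at E13.5 as a group. Their length had a median of 1340 bp (240 to 8603 bp), against 2090 bp for kept regions, which by the rule join peaks of more lists.

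The edge of the rule was close to many of them. In 65 lost regions (14%) the weakest E13.5 peak had a -log10 q-value under 3, where the lists end at 2. Just outside the rule, 459 regions had the same E13.5 peaks and a peak in exactly 1 of the 4 E16.5 lists. Their mean E13.5 fold enrichment had a median of 4.49, against 4.38 in the lost regions, and the single E16.5 peak had a median -log10 q of 5.46. Another 2012 regions had a mark in 1 of 2 E13.5 libraries and in no E16.5 library, with a median fold enrichment of 3.84. The lists were longer at E16.5, with 49640 and 50656 H3K9ac peaks at E16.5, against 37305 and 34520 at E13.5. H3K9cr lists held 41063 and 42293 peaks at E16.5, against 32556 and 28960 at E13.5. Read depths behind the lists are unknown here. With the longer lists cut to the shortest of each mark, 1676 regions met the rule.

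**Figure D1:**
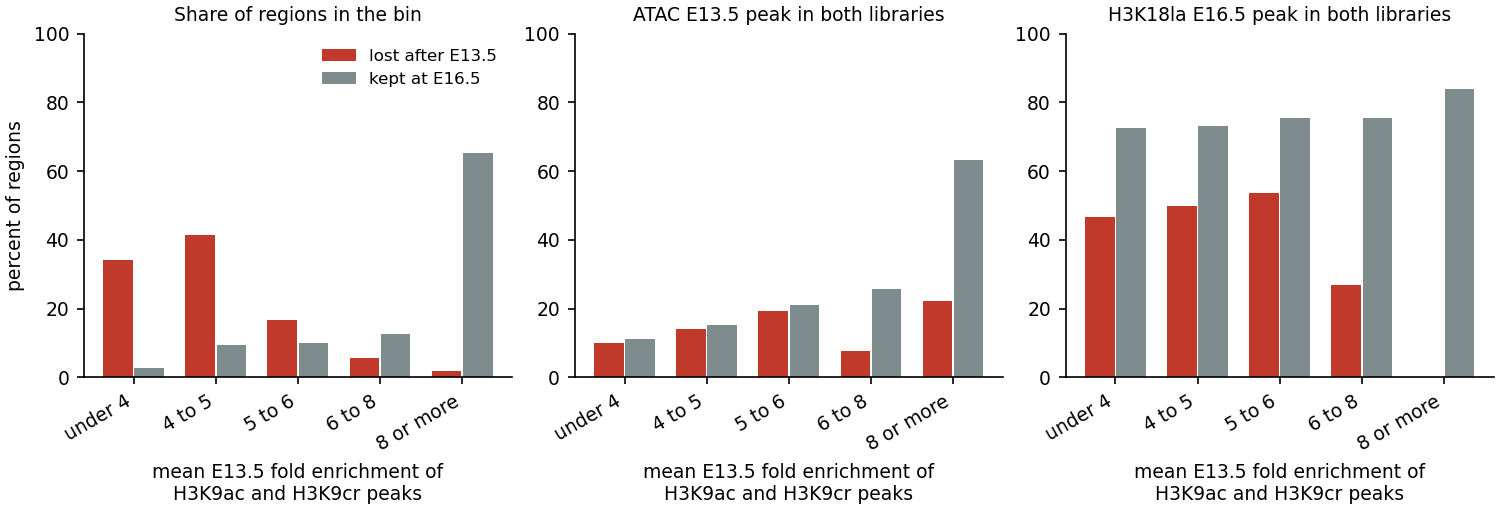
Share of lost regions (left bars) and kept regions (right bars) by the mean E13.5 fold enrichment of their H3K9ac and H3K9cr peaks, and, within each bin, the percent with an ATAC peak in both E13.5 libraries and with an H3K18la peak in both E16.5 libraries. Below a fold of 4, 34.1% of lost regions stand beside 2.76% of kept regions. In the 3 lower bins the ATAC shares of lost and kept regions lie close together while the H3K18la shares at E16.5 do not.

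A lost call was often not a bare stretch of chromatin at E16.5. The median distance from a lost region to the nearest E16.5 peak of H3K9ac or H3K9cr was 6890 bp. In 121 lost regions (26.1%) such a peak lay within 2000 bp, and in 104 (22.5%) it lay over 20000 bp away. Distances to an E16.5 peak are always to peaks of these marks. The lost regions thus ranged from flanks of marked stretches to places with no E16.5 peak in a wide surrounding.

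Lost regions lay at gene starts about as often as merged regions at large. A lost region lay within 2000 bp of an annotated start, or of a gene end where the table gave no start, in 100 cases (21.6%), against 56.6% of kept regions and 21.5% of all merged regions. Inside genes but away from such points lay 212 (45.8%), against 27.6% of kept regions and 43.9% of all. Outside genes lay 151 (32.6%), against 15.8% of kept regions and 34.6% of all. By location the lost regions were thus close to all merged regions, from which the kept regions differed. All merged regions include those with peaks of H3K18la alone. With the H3K18la lists left out of the joining 60993 regions remained, and locations were not counted for that joining. Whether the lost regions also lie close to regions with an H3K9 mark was therefore not tested. The lost regions occurred on every chromosome used, from 11 on chromosomes 18 and 19 to 42 on chromosome 7.

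Some lay in runs. Within 50000 bp of another lost region were 45 of them, forming 21 groups. The same count was not made for kept or all merged regions, so whether lost regions cluster was not tested. The group with the most members was at Ebf3, a transcription factor of Cajal-Retzius and other early-born neurons, with 4 lost regions at chr7:137309145-137318071. Next came Uncx, a homeobox transcription factor of the neural tube and somites, with 3 at chr5:139534127-139545431. Pairs lay at the homeobox gene Barhl2, at Fezf1, a zinc finger factor of the forebrain, and at Jarid2, a subunit that recruits the Polycomb complex PRC2. Others lay at Slit1, which encodes an axon guidance ligand, and at Dst, which encodes a cytoskeletal linker. A pair on chromosome 17 lay at Rn18s-rs5, a copy of ribosomal RNA sequence where reads of many copies can pile up, and its values are uncertain.

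**Figure D2:**
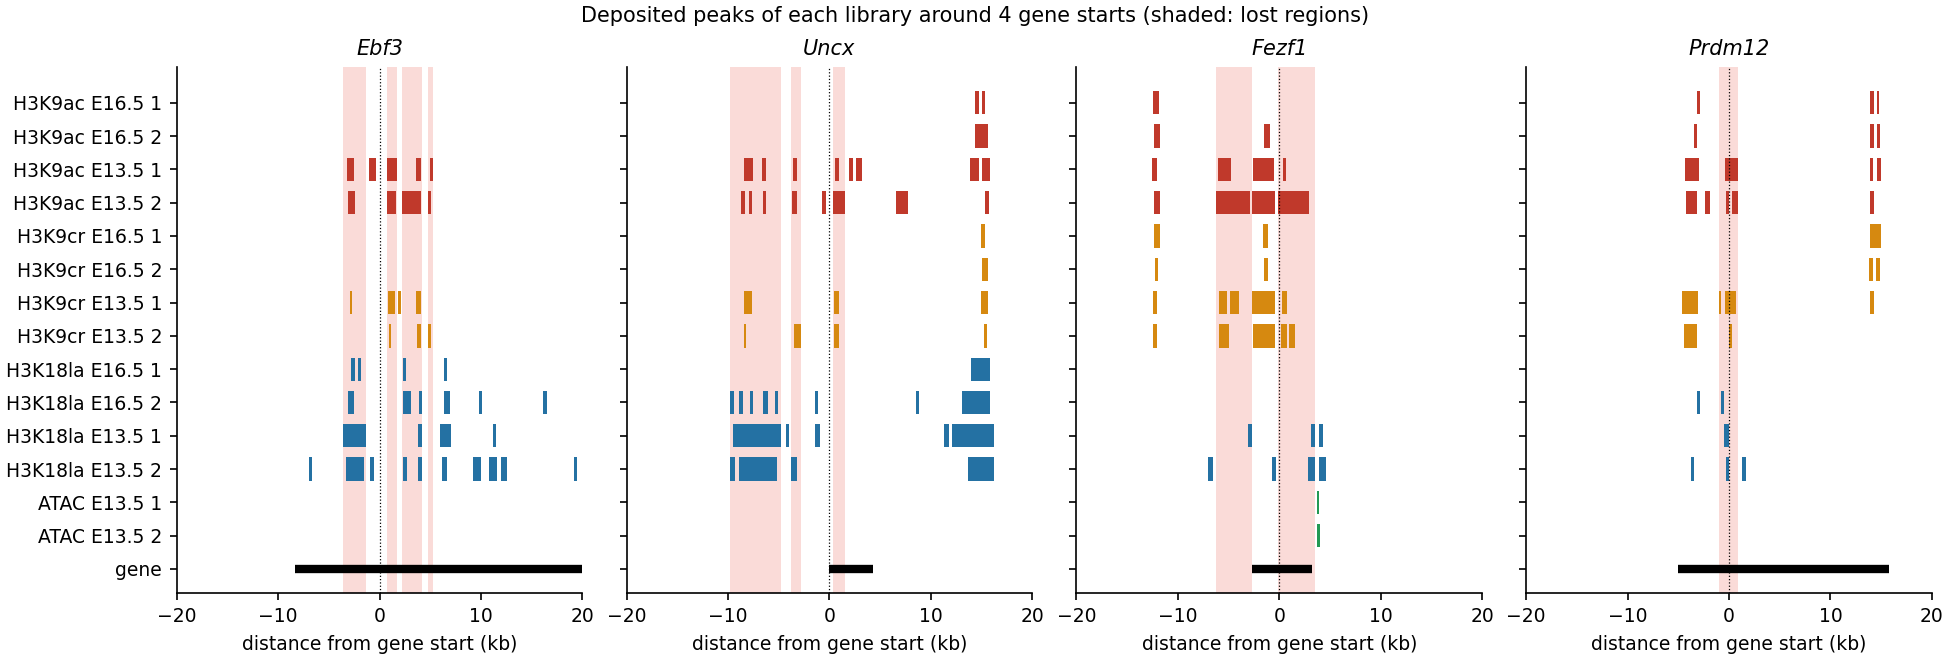
Peaks of each deposited list around the starts of Ebf3, Uncx, Fezf1 and Prdm12, as distance from the gene start in kilobases along the gene's direction. Each row is 1 library with E16.5 above E13.5 within each mark, shading marks lost regions and the black bar is the gene. At Ebf3 no H3K9ac or H3K9cr peak of E16.5 stands within the window, whereas at Fezf1 E16.5 peaks stand between the 2 lost regions. The annotated gene begins at -8360 bp for Ebf3, -33 bp for Uncx, -2672 bp for Fezf1 and -5011 bp for Prdm12.

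The strongest regions with both marks included some in repeated or duplicated sequence. At chr14:43925211-43926164, near Ear10, an RNase gene of a duplicated family, the fold enrichment was 33.8 and 23.4 for H3K9ac and 41.6 and 32.1 for H3K9cr at E13.5, and the nearest E16.5 peak lay 917820 bp away. Ear10 RNA had 0 counts in all libraries. A second region of that stretch, chr14:43812176-43812561, had a mean fold of 14.7. Because reads of near-identical copies can be assigned to any of them, these values are uncertain. The region chr3:88831071-88831380 had a mean fold of 17.9, and chr10:22148398-22149507 at the start of E030030I06Rik 8.60. The region chr15:102325089-102325464 near Pfdn5, a prefoldin chaperone subunit, had 8.29 and lay 384 bp from an E16.5 peak, the region on chromosome 3 only 213 bp.

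Among the 25 regions that qualified through H3K9cr, 16 of which had H3K9ac in 1 of 2 E13.5 lists, the highest mean fold was 19 at chr4:145774604-145774843, in the pseudogenes Vmn2r-ps15 and Gm13243. Next came 11.2 at chr14:115040894-115041608, which lay 2063 bp from the Mir17 hairpin of the miR-17 to miR-92 cluster, microRNAs that promote proliferation. That region had an ATAC peak in both E13.5 libraries, and an E16.5 peak 289 bp away. The other 3 were at the lncRNA Gm35082 with 9.85, at Ppp2cb, a catalytic subunit of protein phosphatase PP2A, with 6.71, and at Fndc3c1 with 6.66, each also with an H3K9ac peak in 1 library. Regions that qualified through H3K9ac were led by chr4:88850891-88852640, near the type I interferon gene Ifna1, with 8.72. Ifna1 RNA had 0 counts in all libraries. The next were Gm34676 with 7.17, the body of Cacng4, which encodes a regulator of AMPA receptors, with 7.03, Gm34282 with 6.70 and an intergenic region of chromosome 19 with 6.65, the last 2 also with an H3K9cr peak in 1 library.

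The rule asked for no H3K18la peak, but peaks of this mark took part in the joining and so in the bounds of regions. Its shares are therefore given also with only the 8 H3K9ac and H3K9cr lists joined, which left 607 lost regions. Peaks of both E13.5 libraries were present in 371 lost regions (80.1%), against 84.9% of kept regions and 42.1% of all merged regions. At E16.5 both libraries had a peak in 219 (47.3%), against 80.7% of kept regions and 37.8% of all. Another 826 regions had the E13.5 peaks of a lost region and some E16.5 H3K9 peak, but neither mark in both E16.5 libraries. Their shares lay near those of lost regions, at 54.2% at E16.5 and 77.4% at E13.5. The libraries gave 51.6% and 61.3% of lost regions at E16.5, and 81.4% and 84.4% at E13.5, so the stages did not overlap. In kept regions the libraries gave 82.2% and 88.4% at E16.5, and 87.4% and 89.2% at E13.5. With only the 8 lists joined, both E16.5 libraries had H3K18la in 50.2% of lost regions, against 80.6% of kept regions and 57.5% of all, and both E13.5 libraries in 83.4%, against 85.0% and 60%. The gap between lost and kept regions at E16.5 was thus present without H3K18la in the joining. With 2 libraries per stage, the smallest p of a two-sided exact permutation test is 0.333, so none was made.

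Followed region by region, H3K18la took several paths. Of the 371 lost regions with H3K18la in both E13.5 libraries, 74 (19.9%) had it in neither E16.5 library. The same share was 2.56% of 23674 kept regions and 14.4% of all merged regions with that start. With the 8 lists joined it was 17.8% of lost regions, 2.59% of kept regions and 5.66% of all. It was 11.9% of 639 regions that had a weaker E16.5 call of an H3K9 mark, that is, a peak in some E16.5 list but neither mark in both libraries. H3K18la held in both libraries of both stages in 218 (47.1%) and was absent from all 4 lists in 64 (13.8%). Its fold enrichment at E13.5 was much alike in lost regions, with medians of 7.12 and 7.24, and in kept regions, with 7.32 and 7.85. At E16.5 the medians of lost regions with a peak were 4.60 and 4.78, against 7.22 and 7.65 in kept regions.

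Since lost regions were weakly marked, the share was also read within bins of their E13.5 fold enrichment. Below 4, H3K18la was present in both E16.5 libraries in 46.8% of lost and 72.7% of kept regions, between 4 and 5 in 50% and 73.1%, and between 5 and 6 in 53.8% and 75.6%. The gap to kept regions was present in each bin. In the 9 lost regions at 8 or above, among them the pair near Ear10, no E16.5 H3K18la peak was found in both libraries, against 83.9% of kept regions.

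**Figure D3:**
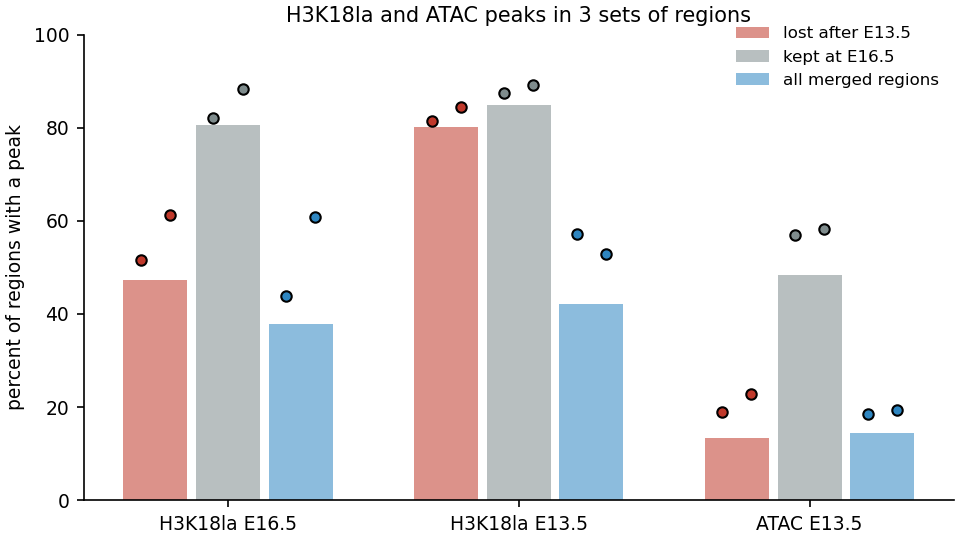
Percent of regions with a peak of H3K18la at E16.5 and E13.5 and of ATAC at E13.5. Bars give the share with a peak in both libraries and points the share in each library, for lost regions, kept regions and all merged regions. H3K18la at E16.5 is in 47.3% of lost and 80.7% of kept regions, and ATAC at E13.5 in 13.4% and 48.4%.

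With all 12 lists joined, open chromatin at E13.5 was about as frequent in lost regions as in merged regions at large and rarer than in kept regions. An ATAC peak of both libraries overlapped 62 of them (13.4%), against 48.4% of kept regions and 14.4% of all merged regions. The libraries alone gave 19% and 22.9% of lost regions, against 56.9% and 58.3% of kept regions. In the 826 regions with a weaker E16.5 call of an H3K9 mark the share in both libraries was 12.5%. The shares were also read within the bins of fold enrichment, which were made only with all 12 lists joined. Below a fold of 4, the shares were 10.1% of lost and 11.2% of kept regions, between 4 and 5 14.1% and 15.4%, and between 5 and 6 19.2% and 21%. In these 3 bins the shares lay close together. Higher up they did not, with 7.69% of 26 lost and 25.6% of kept regions between 6 and 8, and 22.2% of 9 lost and 63.2% of kept regions at 8 or more. With only the 8 lists joined, the ATAC share was 5.27% of lost regions, 47.2% of kept regions and 24.8% of all. ATAC was measured at E13.5 only, so whether openness changed with the mark was not tested.

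RNA took no part in the rule or the joining. The question was whether genes beside lost regions changed between the stages, which edgeR's quasi-likelihood test addressed over 16237 genes. A total of 114 genes lay within 2000 bp, of which 65 were protein-coding, 36 lncRNA and 6 pseudogenes. Of the 80 with an entry in the RNA table, 58 passed the filter on low counts. At an adjusted p under 0.05, 25 of the 58 (43.1%) were lower at E16.5, against 29.2% of all genes tested, and 13 (22.4%) were higher, against 28.4%. Their log2 change had a median of -0.21, and that of all genes 0.01. Genes linked to kept regions were lower in 33.4% and higher in 28.3% of 13377 cases. A gene that is expressed at E13.5 alone can pass the filter through that stage, which bears on the count of lower genes. The 212 tested genes with a lost region anywhere in their body were lower in 76 cases (35.8%) and higher in 68 (32.1%), with a median of -0.04.

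The authors' deposited table of DESeq2 results, made from the same libraries, gave an adjusted p under 0.05 and the same sign for 35 of the 38 genes called here beside lost regions. The 2 E16.5 libraries lay below both E13.5 libraries in 30 of the 58 genes, against 39.8% of all genes tested, and above them in 18, against 39.7%. Changes over 2-fold that passed the test were 11 falls and 8 rises among the 58 genes, against 689 falls and 2070 rises among all 16237 genes tested. The 11 falls include Fndc3c1 and Epcam, which passed the filter on low counts through E13.5.

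**Figure D4:**
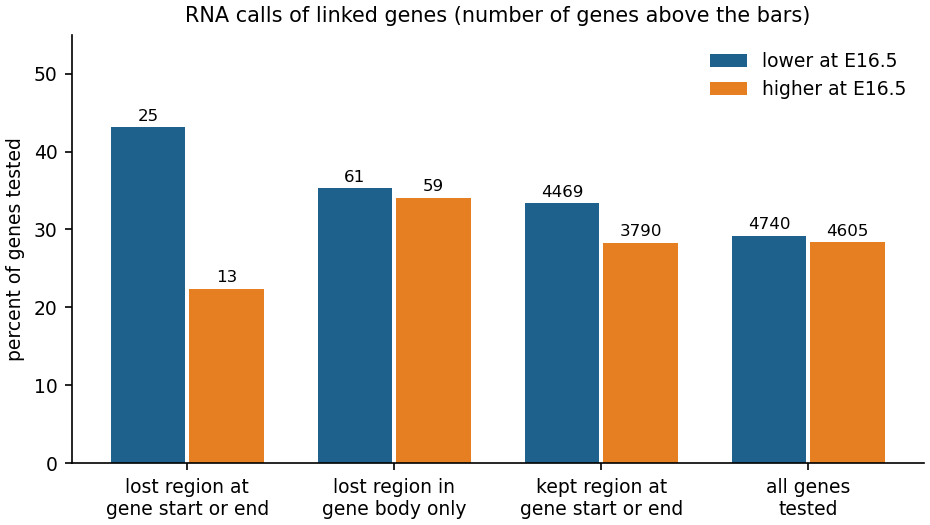
Percent of tested genes called lower or higher at E16.5 than at E13.5 (edgeR, adjusted p under 0.05), for genes with a lost region at the start or end, genes with a lost region in the body only, genes with a kept region at the start or end, and all genes tested. The number of genes stands above each bar. Genes with a lost region at the start or end show 25 lower and 13 higher calls.

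Whether a gene also had a kept region nearby, a split made after the values were seen, separated the linked genes further. Among 47 tested genes that also had a kept region within 2000 bp, 18 (38.3%) were lower and 12 (25.5%) higher, with a median of -0.17. Among the 11 without one, 7 were lower and 1 was higher. Of all 2860 tested genes without a kept region, 9.48% were lower and 28.5% higher, with a median of 0.35. The 11 had H3K9 peaks at E13.5 by the rule, whereas the 2860 need not have had any. The sets are thus not matched, and the contrast is only a description. The 7 lower genes of the 11 were Fndc3c1, Prdm12, Gbx2, Ebf3, Uncx, Epcam and Barhl2, and Pcsk6 was the gene that was higher. The split depends on the cut of 2000 bp. The annotated Prdm12 gene begins at -5011 bp from the start used here. Inside it, upstream of that start, H3K9ac peaks of both E16.5 libraries lay at -3157 to -2900 bp and -3452 to -3119 bp. They overlapped E13.5 H3K9ac peaks at -4382 to -2918 bp and -4208 to -3178 bp. At Barhl2 an E16.5 peak of H3K9ac or H3K9cr lay 898 bp from the lost region. Fndc3c1 and Epcam were below 1 CPM in both E16.5 libraries and passed the filter through E13.5, where they were higher, so that a fall was built into their being tested. Nkx6-2, Foxd1 and Wnt9a did not pass the test, with log2 changes of -1.01, 0.03 and 0.58. In all, 29 genes without a kept region had an entry in the RNA table, and those that did not pass the filter on low counts included Ifna1, Ear10, Dmrt1 and Myh3.

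The 10 largest falls were those of Fndc3c1, Prdm12, Gbx2, Ebf3, Uncx, Otx1, Mfng, Barhl2, Fezf1 and Jph1. Prdm12, a zinc finger factor needed for sensory neurons and expressed in restricted parts of the neural tube, had 2.4 and 2.83 CPM at E16.5, against 10.9 and 12.4 CPM at E13.5 (log2 change -2.15, SE 0.19, edgeR adjusted p = 3.82e-05). Its lost region, chr2:31639060-31640961, spanned the start used here, which lies inside the annotated gene, with both marks. H3K9ac had folds of 5.95 and 4.01 and H3K9cr 6.11 and 3.49. The nearest E16.5 peak was 1923 bp away. Ebf3 had 6.59 and 6.65 CPM at E16.5, against 20.3 and 26.0 CPM at E13.5 (log2 change -1.81, SE 0.152, edgeR adjusted p = 2.98e-05). The stages did not overlap for either gene. The lost region nearest to the Ebf3 start, chr7:137312760-137313742, had folds of 5.90 and 7.73 for H3K9ac and 9.14 and 7.16 for H3K9cr and lay 45808 bp from an E16.5 peak of H3K9ac or H3K9cr. H3K18la was absent there at both stages but held in both stages in the region chr7:137315740-137318071 upstream of the start used. The annotated Ebf3 gene begins at -8360 bp from that start, so the region lies inside the gene.

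Uncx had 1.56 and 1.80 CPM at E16.5, against 5.71 and 6.12 CPM at E13.5 (log2 change -1.81, edgeR adjusted p = 0.000391). Barhl2, a homeobox factor of the diencephalon and of early neurons, had 2.57 and 2.72 CPM at E16.5, against 4.80 and 7.83 CPM at E13.5 (log2 change -1.26, edgeR adjusted p = 0.0061). Both had a lost region with both marks near the start, at 328 bp for Uncx and 276 bp for Barhl2. Gbx2, a homeobox factor of the anterior hindbrain, thalamus and some forebrain interneurons, had 1.84 and 2.02 CPM at E16.5, against 3.66 and 10.3 CPM at E13.5 (log2 change -1.85, edgeR adjusted p = 0.00897). The E13.5 libraries differed for Gbx2, and without the higher one the log2 change was -0.93 and the adjusted p 0.0571. A list of 16 diencephalon and midbrain genes, added after the data were seen, summed to 39.6 and 35.4 CPM at E16.5, against 50.4 and 108 CPM at E13.5, with 2 of 7 tested genes lower and none higher. The higher sum and the higher Gbx2 value came from E13.5 replicate 2. The part of differences in dissection in the falls of Gbx2, Barhl2, Uncx and Prdm12 was not tested.

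Fezf1 had 2.85 and 5.67 CPM at E16.5, against 8.11 and 10.9 CPM at E13.5 (log2 change -1.16, edgeR adjusted p = 0.0125). Of its 2 lost regions, the one on the start, chr6:23244688-23248375, had both marks at folds of 3.57 to 5.01 and also lost H3K18la. It lay 781 bp from an E16.5 peak, so E16.5 peaks remained beside the Fezf1 start. The annotated Fezf1 gene begins at -2672 bp from that start, so this nearest peak lies inside the gene. Fndc3c1, a fibronectin type III domain gene of the X chromosome, had 0.223 and 0.327 CPM at E16.5, against 4.14 and 4.85 CPM at E13.5 (log2 change -3.99, SE 0.378, edgeR adjusted p = 5.57e-05). That is 10 counts at E16.5 and 157 at E13.5, and the gene was tested because of its E13.5 level. Its lost region chrX:106484935-106485926 carried H3K9cr at folds of 7.88 and 7.34, H3K9ac in 1 of 2 E13.5 libraries and no H3K18la, and the nearest E16.5 peak lay 264667 bp away. Among the 10 falls named here, Fndc3c1 had the lost region farthest from any E16.5 peak of these marks.

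Other falls were at genes linked through an end for which no start was listed. Otx1, a homeobox factor of cortical progenitors and deep-layer neurons, had 24.2 and 21.9 CPM at E16.5, against 64.7 and 61.0 CPM at E13.5 (log2 change -1.45). Mfng, a glycosyltransferase that modifies Notch and is expressed in intermediate progenitors, had 42.2 and 41.3 CPM at E16.5, against 107 and 98.0 CPM at E13.5 (log2 change -1.30). Jph1, which joins plasma membrane and endoplasmic reticulum, had a log2 change of -1.16. The lost region at Mfng, chr15:78754420-78755406, also lost H3K18la, and that at Otx1, chr11:21992678-21993048, lay 646 bp from an E16.5 peak. All 3 genes had a kept region nearby as well.

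Genes beside lost regions rose too. Dnah2, an axonemal dynein heavy chain of motile cilia, had 17.8 and 20.7 CPM at E16.5, against 6.37 and 5.68 CPM at E13.5 (log2 change 1.68, SE 0.143, edgeR adjusted p = 3.25e-05), with its start inside a lost H3K9ac region. Olfm2, a secreted olfactomedin of neurons, had 129 and 136 CPM at E16.5, against 49.1 and 42.7 CPM at E13.5 (log2 change 1.53). Nptxr, the neuronal pentraxin receptor of synapses, had 109 and 101 CPM at E16.5, against 41.1 and 35.1 CPM at E13.5 (log2 change 1.46). In each of these genes the stages did not overlap. Lgi2, a secreted neuronal protein, rose by 1.46, Armc2, a protein of cilia and sperm tails, by 1.40, Pcsk6, a proprotein convertase, by 1.1 and Cnn2, an actin-binding calponin, by 0.96. Npcd shares its lost region with Nptxr and overlaps it, with 76 counts at E16.5 and 13 at E13.5 (log2 change 2.47, edgeR adjusted p = 0.0181), and reads of the 2 genes may not be told apart. Nfam1, an immune receptor, rose by 1.12 (edgeR adjusted p = 0.0179), but missed the threshold with DESeq2 (adjusted p = 0.086). Of these rises, all but Pcsk6 had a kept region nearby.

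**Figure D5:**
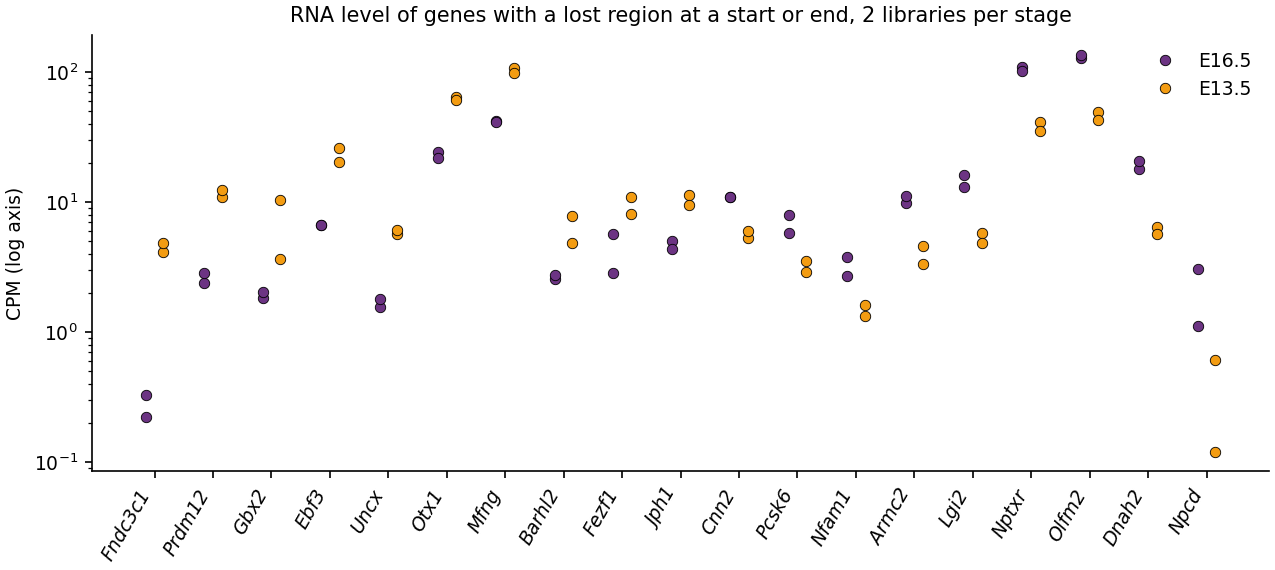
CPM on a log axis of the 10 largest falls and 9 largest rises among genes with a lost region within 2000 bp, with 2 libraries of E16.5 on the left and 2 of E13.5 on the right of each gene. Genes are ordered by log2 change. The stages do not overlap for any gene shown, as the choice of genes required, and the 2 E13.5 libraries of Gbx2 lie apart at 3.66 and 10.3 CPM.

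Set against gene lists of this tissue, 8 genes of 265 in 16 lists (3.02%) had a lost region at the start or end, spread over 5 lists, against 80 of 38710 genes (0.207%) in the RNA table and 58 of 16237 (0.357%) among those tested. The lists were chosen with earlier results known, so that these shares are descriptions. The list of Cajal-Retzius cells and cortical hem gave Ebf3 and Barhl2, and 9 of its 14 tested genes were lower and 1 higher. A list of Hox and other homeobox patterning genes, of whose 22 genes 13 had 0 counts, gave the non-Hox genes Gbx2 and Otx1, with 3 of 4 tested genes lower. Mfng stood in the list of intermediate progenitors and proneural factors, of which all 15 were lower. Fezf1 had been placed beside Fezf2 in the list of deep-layer neurons, of which 5 of 10 were lower and 4 higher. That placing does not show that Fezf1 marks deep-layer neurons. The median log2 changes of these lists were -1.04, -1.65, -1.33 and -0.12, against 0.01 for all genes.

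The list of meninges and mesenchyme gave 2 genes that did not pass the test. Col1a1, the collagen of fibroblasts and bone, had 9.05 and 4.96 CPM at E16.5, against 1.92 and 8.38 CPM at E13.5, and Foxd1, a factor of meningeal and kidney stroma, had 0.894 and 0.981 CPM, against 0.961 and 0.882 CPM. The log2 changes were 0.43 (edgeR adjusted p = 0.537) and 0.03 (edgeR adjusted p = 0.96). Both are markers of meninges and mesenchyme, a list that summed to 43.7 and 51.9 CPM at E16.5, against 45.8 and 70.1 CPM at E13.5. The other 11 lists, among them radial glia, cell cycle, ventral telencephalon, morphogen signalling, synapse and the markers of erythroid cells, microglia, vessels and choroid plexus, had no gene with a lost region at its start or end. Lists of vessel and microglial markers rose in RNA, with 15 of 15 and 12 of 13 genes higher and 717 and 746 CPM of vessel markers at E16.5, against 213 and 220 CPM at E13.5.

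Within gene bodies 3 of 12 heterochronic and early progenitor factors held a lost region, namely Hmga2, Lin28a and Igf2bp3. This stands against 254 of 38710 genes (0.656%) in the RNA table and 212 of 16237 (1.31%) among those tested. These shares take no account of gene length. Genes with a lost region in the body only had 61 lower and 59 higher calls with a median log2 change of 0.02, so the falls of the list genes below do not describe body regions at large. Hmga2, a chromatin protein that keeps progenitors in an early state, had 1.34 and 1.69 CPM at E16.5, against 35.4 and 48.3 CPM at E13.5 (log2 change -4.78, edgeR adjusted p = 1.51e-06). Its lost region chr10:120405253-120407117 carried H3K9ac at folds of 3.74 and 4.80, held H3K18la in both stages and lay 2665 bp from an E16.5 peak. Igf2bp3, an RNA-binding protein of early progenitors, had 39.6 and 39.1 CPM at E16.5, against 90.9 and 91.9 CPM at E13.5 (log2 change -1.22). Its region chr6:49211466-49211927 also lay near the lncRNA D030074P21Rik. Lin28a, an RNA-binding protein that blocks the maturation of let-7, did not pass the filter on low counts. Mcm2, a subunit of the replicative helicase, had 58.3 and 60.2 CPM at E16.5, against 188 and 197 CPM at E13.5 (log2 change -1.70), with a lost region that had H3K18la at E13.5 and at E16.5 had none. Mcm2 comes from the cell cycle list, of which all 20 genes were lower at a median of -1.57. It was the only gene of that list with a lost region in its body. The list of heterochronic factors as a whole had 7 of 10 tested genes lower and none higher, at a median of -0.91.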

How the data were processed

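The submitters' processing notes name Bowtie2 2.4.1, MACS2 2.2.7.1 and GRCm38, and the authors deposited 1 peak list per library. Columns for each peak, per the file headers, are a signal value (summit pileup), a -log10 p-value, a -log10 q-value and a fold enrichment ratio. The control used for calling was not stated. The RNA table deposited by the authors held expected counts per gene, for which the submitters' processing notes name Salmon 1.1.0, and a second deposited table gave log2 fold changes with p-values from DESeq2 1.26.0.

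Regions were merged and compared in Python 3.11.15. RNA counts were rounded and fitted with edgeR 4.0.16 under R 4.3.3 (TMM, filterByExpr, quasi-likelihood F test, E16.5 minus E13.5, Benjamini-Hochberg over 16237 genes, 2 residual degrees of freedom). This fit and the merging were tested on simulated data. P-values measure the spread between 2 libraries a stage. Gene positions came from RefSeq on GRCm38.p6, and 38710 of 49550 genes matched the RNA table. A gene was linked when a region lay within 2000 bp of its start (67 genes) or, where no start was listed, of either end (47 genes). Regions named were the 5 with the highest mean E13.5 fold enrichment in each class. Genes named were the 10 largest falls and rises among linked genes with an adjusted p under 0.05, a mean of at least 1 CPM and no overlap between stages, and linked genes of the lists, of which 1 rise is not reported here. The members and lists were chosen with earlier results of these data known, and the diencephalon and midbrain list, the fold bins, the protein-coding subset, the split by kept regions and the shares with 8 lists joined were added later. Alternatives were other scalings and filters, DESeq2 1.42.0, other peak thresholds and links, a replicate block and leaving out each library.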

Additional observations from a re-analysis of the deposited data

How the results depend on the processing

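The number of lost regions depended on the lists. It was 215 when E13.5 peaks needed a -log10 q of at least 5, 1676 with an equal number of peaks per library, and 521 to 1476 when 1 library was left out, with 1198 without H3K9ac E13.5 replicate 1, 1476 without replicate 2 and 807 without H3K9cr E13.5 replicate 2. Leaving out an E13.5 library relaxes the need for 2 lists by construction.

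The share with H3K18la at E13.5 was 85.7% with a peak in at least 1 library, 83.4% with only the 8 H3K9ac and H3K9cr lists joined, and 81.4% to 84.4% in single libraries. At E16.5 it was 65.7% in at least 1 library, 51.6% to 61.3% in single libraries, and 26.9% and 0.0% of regions with folds of 6 to 8 and of 8 or more. The ATAC share was 28.5% in at least 1 library, 5.27% with only those 8 lists joined, 9.29% over the span of the E13.5 H3K9 peaks alone, 17.7% for regions with the stricter E13.5 peaks, 19% to 22.9% in single libraries, and 10.1%, 19.2%, 7.69% and 22.2% at folds under 4, of 5 to 6, 6 to 8 and 8 or more. The causes were not tested.

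The median log2 change of linked genes was -0.12 with upper-quartile scaling, which moved that of all genes to 0.10 and the calls over all genes to 5349 higher and 3820 lower, with 16 higher and 20 lower among linked genes. It was -0.31 with no filter on low counts, -0.29 with DESeq2, -0.04 for gene bodies, -0.47 with the stricter E13.5 peaks and -0.26 to -0.20 when 1 library was left out. Linked genes higher at E16.5 were 8 of 39 (20.5%) within 1000 bp and 22 of 89 (24.7%) within 5000 bp. They were 68 of 212 (32.1%) for gene bodies and 4 of 27 (14.8%) with the stricter peaks, against 28.4% of all genes tested. Lower genes in the same order were 17 (43.6%), 36 (40.4%), 76 (35.8%) and 17 (63.0%), against 29.2% of all genes tested. Of the linked genes with a kept region as well, 12 were higher and 18 lower at a median of -0.17. Of those without one 1 was higher and 7 lower at a median of -1.58, a split chosen after seeing the data. The 7 include Fndc3c1 and Epcam, which passed the filter through E13.5, and the median is the value of Epcam itself.

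Replicate numbers were shared by the stages, but deviations of same-numbered RNA libraries correlated at 0.12 over 2 pairs, so they were not treated as pairs. With the replicate block, 4675 genes were higher and 4851 lower, among linked genes 13 and 26, with a median of -0.20.

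Of 25 named genes under 9 settings, 213 results kept direction and call. Col1a1 turned to -0.27 without E13.5 replicate 1 and -0.08 without E16.5 replicate 1 and passed the test at 1.85 without E13.5 replicate 2. Foxd1 turned to -0.00203 with no filter, -0.05 without E13.5 replicate 2 and -0.05 without E16.5 replicate 2, with a range of -0.05 to 0.08 when 1 library was left out. Calls were lost for Gbx2 and Nfam1 without E13.5 replicate 2, for Nfam1 with DESeq2 and without E16.5 replicate 1, and for Npcd and Pcsk6 without E16.5 replicate 2. Sequencing depth behind the peak lists is unknown, so an absent peak is not shown to be an absent mark.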
